A study of Rattus norvegicus with 12 samples.

Results

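*Adpgk*, the ADP-dependent glucokinase, was examined together with the enzymes that carry glucose through the upper steps of glycolysis in the hippocampus of young rats bred for high or low novelty response. The members were *Adpgk*, the hexokinases *Hk1* and *Hk2*, *Gpi*, the 3 phosphofructokinase genes *Pfkl*, *Pfkm* and *Pfkp*, *Aldoa*, *Tpi1* and *Pgk1*, found by their symbol in the deposited probe table. Of these 10 genes 9 had a probe, with 10 probes in all among the 22523 of the array, since *Aldoa* had 2. No probe carried the symbol or a synonym of *Hk1*, which was not analysed here. *Adpgk* was chosen because its signal differed between the lines, so its difference is described without a test, while the other enzymes were chosen by their place in the pathway.

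The tested animals were 6 bred High Responder (bHR) males, and they were compared with 6 bred Low Responder (bLR) males, all 14 days old, with no treatment given in the labels, and of generation F15 of selective breeding. Total RNA of the whole hippocampus of each rat was hybridised to 1 Illumina RatRef-12 array, so n = 6 per line, and this number limits the precision. Line and any background fixed by breeding go together: each line is 1 breeding population, and the sources used here do not name litters. The arrays were not alike in brightness: the 3 dimmest, with a mean signal of 453 to 488 units, all held bHR rats (replicates 27, 29 and 39), while the other 9 read 750 to 1038 units, and the array of bHR replicate 27 was the least like the rest, with a mean r of 0.987. In such bulk tissue a change in the number of cells of a type and a change in RNA per cell cannot be told apart.

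Glycolysis begins when a hexokinase transfers phosphate from ATP to glucose, which traps the sugar in the cell. ADPGK catalyses the same step with ADP as the phosphate donor and lies at the endoplasmic reticulum, in contrast to the hexokinases of the cytosol and the mitochondrial surface. Phosphoglucose isomerase, phosphofructokinase and aldolase then rearrange, phosphorylate and split the sugar, triosephosphate isomerase interconverts the products, and phosphoglycerate kinase makes the first ATP of the pathway. In brain, hexokinase I is the main hexokinase, and glycolysis supplies both neurons and astrocytes.

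*Adpgk* is the gene that chose this set, and *Tpi1* is the enzyme that varied least between rats after quantile normalisation. The stretches before their transcription starts are therefore shown, and both hold the same pair of short motifs. They are RefSeq sequences of the GRCr8 assembly, each 250 bases long and ending at the base before the start: *Adpgk* on the plus strand of chromosome 8 (chr8:68595022-68595271) and *Tpi1* on the minus strand of chromosome 4 (chr4:159305089-159305338). Capitals mark the core of the cAMP-response element (TGACGT, or ACGTCA on the other strand) and the GC box (GGGCGG, or CCGCCC on the other strand), which do not overlap each other here.
Adpgk: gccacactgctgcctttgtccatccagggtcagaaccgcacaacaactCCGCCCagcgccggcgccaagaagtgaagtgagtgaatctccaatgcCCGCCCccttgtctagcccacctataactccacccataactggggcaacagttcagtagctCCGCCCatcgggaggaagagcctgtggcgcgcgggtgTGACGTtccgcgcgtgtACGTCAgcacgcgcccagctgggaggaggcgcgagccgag
Tpi1: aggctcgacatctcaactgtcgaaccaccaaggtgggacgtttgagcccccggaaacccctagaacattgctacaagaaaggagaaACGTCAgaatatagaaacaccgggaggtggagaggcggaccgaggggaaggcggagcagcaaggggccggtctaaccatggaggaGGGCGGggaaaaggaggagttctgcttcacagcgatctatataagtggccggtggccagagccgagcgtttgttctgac

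The *Adpgk* stretch held 2 cAMP-response cores and 3 GC boxes, and that of *Tpi1* held 1 of each. Over 33469 promoter stretches of this length the cAMP-response core occurred in 6.95% and the GC box in 30.5%. Promoters were listed for 9 of the 10 members, with 12 starts in all, and *Adpgk* and *Tpi1* were the genes among them with the cAMP-response core. The GC box was in 7 of these 9 genes, so it is not particular to the 2 shown. Here a gene counts if any of its starts has the motif, while the 30.5% is a share of single stretches. The share of G and C in the *Adpgk* stretch was higher than in 82.1% of all stretches. The core of the hypoxia-response element (ACGTG, or CACGT on the other strand), present in 16.6% of all stretches, occurred in *Pfkm*, in 1 of 3 starts of *Aldoa* and in 1 of 2 starts of *Hk1*. The E-box CACGTG, which contains the hypoxia-response core and lies in 5.59% of all stretches, occurred in none of the 12. A match of letters is a description and not a site of binding.

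*Adpgk* (probe ILMN_1373217) was higher in every bHR rat than in any bLR rat. Its normalised log2 signal ran from 8.83 through a median of 9.09 to 9.15 in bHR, and from 8.27 through a median of 8.38 to 8.72 in bLR. The ranges did not overlap, with the closest rats being bHR replicate 39 at 8.83 and bLR replicate 38 at 8.72. The means were 9.04 ± 0.12 in bHR and 8.43 ± 0.17 in bLR (SD, n = 6 each), a difference of +0.61 or 1.53-fold. The size of this difference is that of a gene picked for it. Over all probes 0.0888% were called by limma at an adjusted p of 0.05, with 0.0311% higher and 0.0577% lower in bHR, and 0.391% had lines with separate ranges. These shares stand beside the *Adpgk* values only as a background, since this contrast chose the gene.

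**Figure D1:**
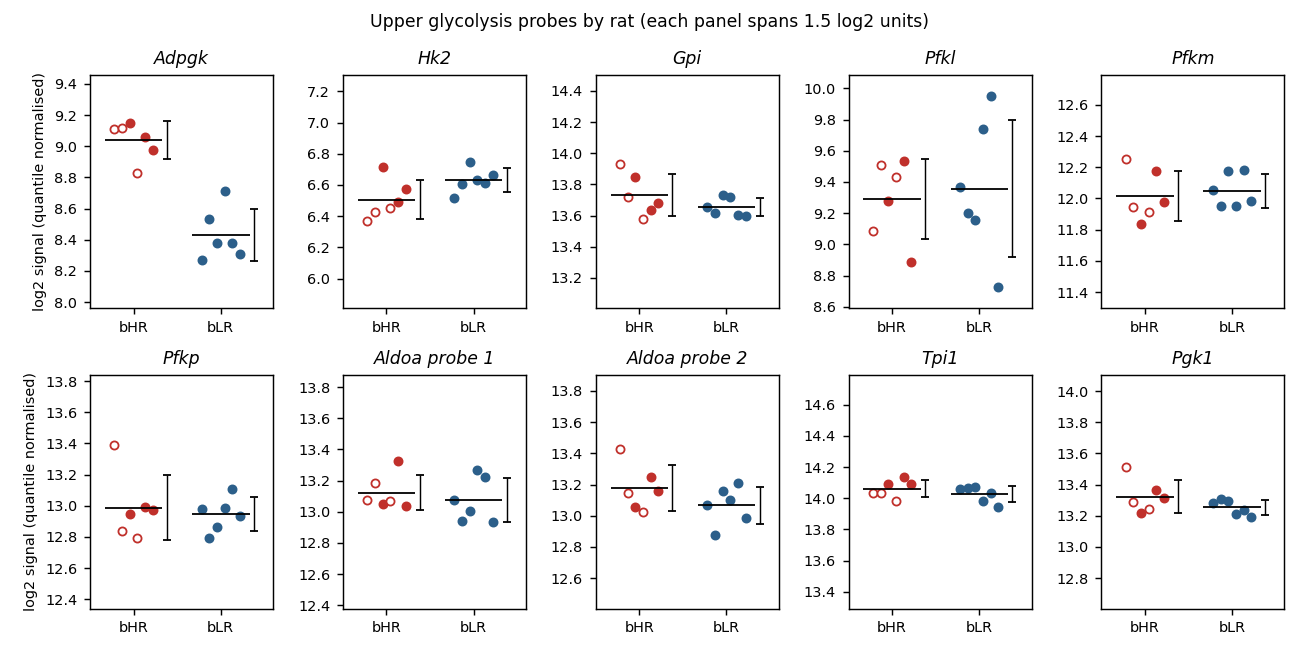
Normalised log2 signal of the 10 member probes in each rat, bHR left and bLR right; every panel spans 1.5 log2 units, lines are means, bars are SD (n = 6), and open circles are the 3 dimmest arrays. *Adpgk* is the panel in which all 6 bHR rats lie above all 6 bLR rats, while the lines overlap in the other 9.

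The unscaled signal shows how array brightness bears on this value. On the 3 dim bHR arrays the deposited *Adpgk* signal was 392, 342 and 304 units in replicates 27, 29 and 39, against 352 to 503 units in bLR. On the other 3 bHR arrays it was 678, 581 and 517 units for replicates 33, 41 and 47, each above the highest bLR value without any scaling. The difference was +0.65 when the 9 brighter arrays were normalised by themselves. With arrays centred on their medians, or with no scaling, it was +0.39 relative to the median of all probes, which without scaling lay at -0.22. The dim arrays also spanned a narrower range, where the 95th percentile of signal stood 31.1 to 33.1 times over the 5th, against 52.4 to 67.2 times on the others, and the part of this in the unscaled values was not tested.

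A ratio formed within each array cancels a factor common to its probes, but not the narrower range of the dim arrays. The part of that range in the ratio was not tested. The log2 ratio of *Adpgk* to the mean of the other 9 member probes, taken from the deposited signal, ran from -3.13 to -2.83 in bHR and from -3.82 to -3.39 in bLR, and the lines did not overlap. The mean ratio was -2.97 ± 0.13 in bHR and -3.60 ± 0.16 in bLR (SD, n = 6 each), a difference of +0.63. Among the 9 brighter arrays that difference was +0.60, with 3 bHR and 6 bLR rats. The ratio reuses the *Adpgk* values that chose the gene, and the weak *Hk2* probe is in its average, so it is a description and supports nothing further.

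**Figure D2:**
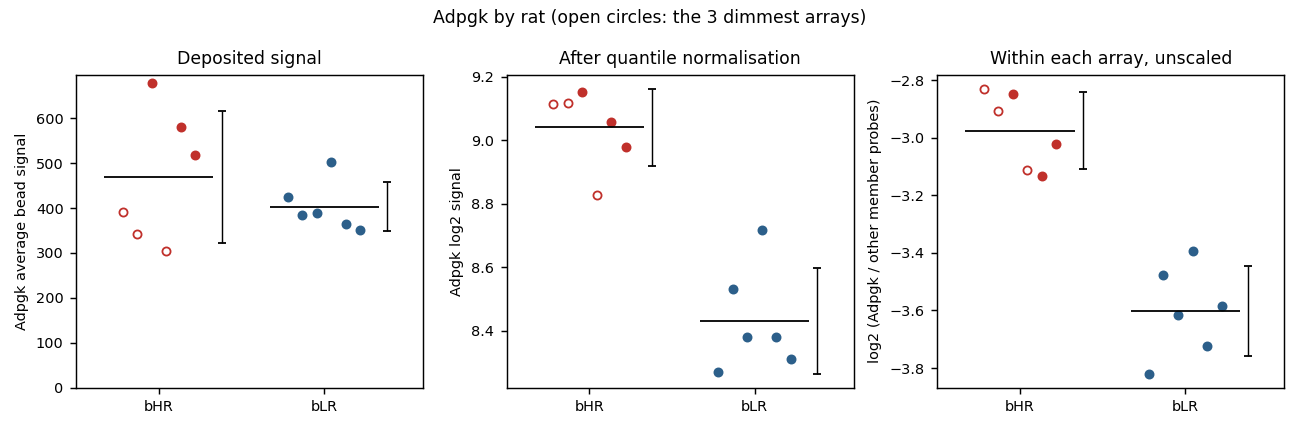
*Adpgk* in each rat as the deposited average bead signal, as the normalised log2 signal and as the unscaled log2 ratio to the other member probes of the same array; lines are means, bars are SD (n = 6), and open circles are the 3 dimmest arrays. The dim bHR arrays overlap bLR in the deposited signal (304 to 392 against 352 to 503 units), and the ratio, which reuses the values that chose the gene, runs from -3.13 to -2.83 in bHR and from -3.82 to -3.39 in bLR.

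No other upper glycolysis enzyme passed the test. Of their 9 probes 0 passed limma at an adjusted p of 0.05, where 0.0888% of all probes did, and 0 had an unadjusted p under 0.05, where 6.02% of all probes did. Their differences ran from -0.12 to +0.11, with 6 positive and 3 negative and a median of +0.04, beside +0.0017 for all probes. They ran from -0.12 to +0.09 on the 9 brighter arrays, but with arrays centred or unscaled all 9 were negative, from -0.35 to -0.07 relative to the median of all probes, and again 0 passed. The adjusted p ran from 0.83 to 0.97 in limma. A p of this size does not show equality. Under quantile normalisation all 9 of the 95% intervals included 0. The lowest lower bound was -0.44 and the highest upper bound was +0.31, both at *Pfkl*. These intervals do not cover the choice of scaling, so they do not bound what was missed. With arrays centred, all estimates but those of *Hk2* and *Pfkl* fell below their own intervals, such as *Tpi1* (-0.25 against -0.06 to +0.13).

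*Hk2*, the inducible hexokinase of muscle and growing tissues, catalyses the ATP-dependent version of the *Adpgk* step. Its log2 signal ran from 6.37 through 6.47 to 6.72 in bHR and from 6.51 through 6.62 to 6.74 in bLR. The difference was -0.12 ± 0.06 (95% interval -0.25 to +0.0062; limma adjusted p = 0.83), so the estimate lay on the opposite side of 0 from *Adpgk*. Its probe lay below the median of all probes (6.66), where signal over background is small, and on the 9 brighter arrays the difference was -0.04. The value is thus a weak measure of *Hk2* RNA.

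*Gpi*, the phosphoglucose isomerase, ran from 13.58 through 13.70 to 13.93 in bHR and from 13.60 through 13.64 to 13.74 in bLR. The difference was +0.08 ± 0.06 (95% interval -0.05 to +0.21; limma adjusted p = 0.90). The bLR range lay inside that of bHR, and bHR replicates 27 and 33 (13.93 and 13.85) were the rats above it.

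Phosphofructokinase commits the sugar to glycolysis and is built from liver (*Pfkl*), muscle (*Pfkm*) and platelet (*Pfkp*) type subunits. *Pfkl* was the most variable member, at 8.89, 9.36 and 9.54 (lowest, median, highest) in bHR and 8.73, 9.28 and 9.95 in bLR. Its within-line SD of 0.36 exceeded that of 98.2% of all probes or equalled it. The difference was -0.07 ± 0.18 (95% interval -0.44 to +0.31; limma adjusted p = 0.97), the widest interval among the members, and it was -0.12 on the 9 brighter arrays.

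*Pfkm* ran from 11.84 through 11.96 to 12.25 in bHR and from 11.95 through 12.02 to 12.18 in bLR, with a difference of -0.03 ± 0.07 (95% interval -0.19 to +0.13; limma adjusted p = 0.97). *Pfkp* ran from 12.79 through 12.96 to 13.39 in bHR and from 12.79 through 12.96 to 13.11 in bLR, with a difference of +0.04 ± 0.09 (95% interval -0.14 to +0.23; limma adjusted p = 0.96). Its high end was bHR replicate 27 alone. Without this rat the *Pfkp* difference was -0.04, so the 3 subunit genes then all had negative estimates that did not pass.

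*Aldoa*, the aldolase that splits the sugar into trioses, was read by 2 probes. The first (ILMN_1366201) ran from 13.03 through 13.07 to 13.32 in bHR and from 12.93 through 13.04 to 13.27 in bLR (+0.05 ± 0.07; limma adjusted p = 0.95). The second (ILMN_1367380) ran from 13.03 through 13.15 to 13.43 in bHR and from 12.88 through 13.08 to 13.21 in bLR (+0.11 ± 0.07; limma adjusted p = 0.88). The lines overlapped at both.

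*Tpi1*, the triosephosphate isomerase, was the steadiest member after quantile normalisation. It stood at 13.98, 14.06 and 14.14 in bHR and 13.94, 14.05 and 14.07 in bLR (lowest, median, highest). Its mean level was at or above that of 99.5% of probes, and its spread on other scales was not examined. Its within-line SD of 0.05 was at the level of the lowest 1.45% of probes. The difference was +0.04 ± 0.04 (95% interval -0.06 to +0.13; limma adjusted p = 0.94), the narrowest interval among the members, and it was +0.07 on the 9 brighter arrays.

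*Pgk1*, the phosphoglycerate kinase, ran from 13.22 through 13.30 to 13.52 in bHR and from 13.19 through 13.26 to 13.31 in bLR. The difference was +0.07 ± 0.05 (95% interval -0.05 to +0.18; limma adjusted p = 0.90), and the highest bHR value was again replicate 27. Several of these genes have processed copies elsewhere in the genome, and probe sequences were not used here, so signal from such copies cannot be separated.

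**Figure D3:**
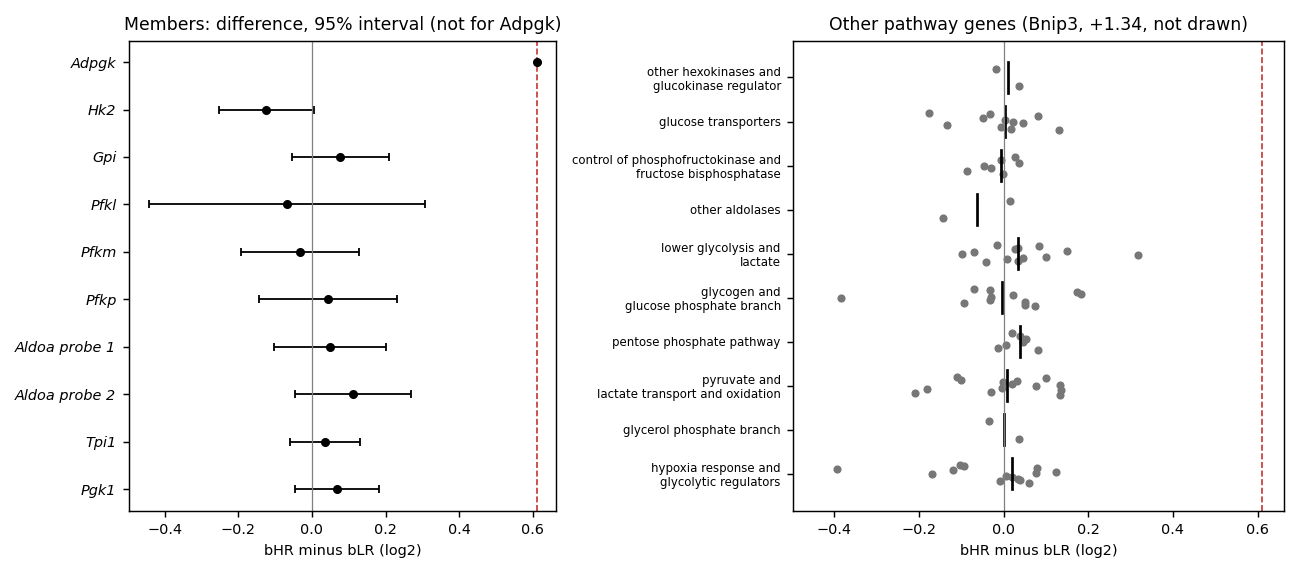
Difference bHR minus bLR (log2) of the 10 member probes (left), with 95% intervals for all but *Adpgk*, and for 84 of 85 genes of the surrounding pathways as points with the list median as a bar (right); the dashed line is the *Adpgk* difference of +0.61. The intervals of the other 9 members all include 0 and end at +0.31 or lower, and the drawn list genes lie between -0.39 and +0.32.

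Genes on either side of these steps were read from lists chosen by their role. In all, 85 of 105 listed genes were measured, 58 of them above the median signal, and 0 passed limma at an adjusted p of 0.05 in either direction. At an unadjusted p under 0.05 there were 6 (7.06% of 85, beside 6.02% of all probes), the 2 lines overlapped at all 85, and the median difference was +0.02. The list medians were +0.0095 for other hexokinases and their regulator (2 of 4 measured), +0.0026 for glucose transporters (11 of 11), -0.0062 for control of phosphofructokinase and fructose bisphosphatase (7 of 7) and -0.06 for other aldolases (2 of 2). They were +0.03 for lower glycolysis and lactate (13 of 14), -0.0035 for the glycogen and glucose phosphate branch (12 of 17), +0.04 for the pentose phosphate pathway (7 of 10) and +0.0081 for pyruvate and lactate transport and oxidation (14 of 19). The glycerol phosphate branch gave +0.0010 (2 of 3), and the hypoxia response and glycolytic regulators gave +0.02 (15 of 18).

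In lower glycolysis the enolase *Eno1* stood at 8.67 ± 0.16 in bHR and 8.35 ± 0.28 in bLR (SD, n = 6 each), a difference of +0.32 ± 0.11 (limma adjusted p = 0.73). With arrays centred or unscaled it was +0.0912 relative to the median of all probes. The neuronal enolase *Eno2* gave -0.10 ± 0.05 and the pyruvate kinase *Pkm* +0.15 ± 0.13 (limma adjusted p = 0.83 and 0.92), the second of which was +0.0290 without bHR replicate 27. *Gapdh*, the dehydrogenase between *Tpi1* and *Pgk1*, gave -0.04 at its brightest probe and -0.07 and +0.18 at its 2 dimmer ones, none past the threshold. *Aldoc*, the astrocyte-enriched aldolase, gave +0.02 ± 0.08.

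In the glycogen branch, *Pygl*, the liver type glycogen phosphorylase, had the lowest p of all list genes. It stood at 7.26 ± 0.20 in bHR and 7.64 ± 0.19 in bLR (SD, n = 6 each), a difference of -0.38 ± 0.10 that did not pass (limma adjusted p = 0.40). *G6pc1*, a glucose phosphatase that undoes the step of *Adpgk* and the hexokinases in liver, gave +0.17 ± 0.06 (limma adjusted p = 0.63), and *Ugp2*, which makes the sugar donor for glycogen, gave +0.18 ± 0.15 (0.90). Of the transporters above the median signal, the myo-inositol carrier *Slc2a13* gave -0.18 ± 0.09, the fructose carrier *Slc2a5* +0.05 ± 0.12 and *Slc2a6* +0.02 ± 0.07, with limma adjusted p of 0.83 to 0.98.

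*Slc16a3*, a carrier that exports lactate, gave -0.21 ± 0.08 (limma adjusted p = 0.73), but -0.0666 on the 9 brighter arrays and -0.42 with arrays centred. There were also *Dld*, a subunit of pyruvate dehydrogenase, at +0.13 ± 0.08 and *Pdp2*, its phosphatase, at -0.11 ± 0.07. The pentose phosphate enzymes *Pgd* and *Rpia* gave +0.05 ± 0.08 and +0.05 ± 0.07. The glycerol phosphate dehydrogenases *Gpd1* and *Gpd2* gave +0.04 ± 0.08 and -0.03 ± 0.09, while *Pfkfb4*, which sets the level of an activator of phosphofructokinase, gave -0.05 ± 0.08 and *Fbp2*, a phosphatase that reverses its step, +0.03 ± 0.08. Among hypoxia response genes *Ddit4*, an inhibitor of mTOR signalling, gave -0.39 ± 0.16, the growth factor *Vegfa* -0.17 ± 0.09 and adrenomedullin (*Adm*) -0.12 ± 0.07. None of these passed, with limma adjusted p of 0.73 to 0.98.

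The genes beside *Adpgk* were examined in the order given by the RefSeq gene table of the GRCr8 assembly, 5 protein-coding genes to each side, of which 9 were measured. None passed limma, against 0.0888% of all probes, and 3 of 9 had an unadjusted p under 0.05, against 6.02% of all probes. *Neo1* and *Bbs4*, which directly flank *Adpgk*, gave +0.0020 ± 0.07 and +0.01 ± 0.12 (limma adjusted p = 0.998 and 0.99). *Celf6*, an RNA-binding splicing factor and the fifth gene from *Adpgk* on the *Bbs4* side, was the neighbour with the largest estimate.

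*Celf6* ran from 9.41 through 9.46 to 9.70 in bHR and from 8.93 through 9.04 to 9.37 in bLR. The ranges did not overlap, as for 0.391% of all probes, and every bHR rat lay above every bLR rat. The difference was +0.39 ± 0.08 (95% interval +0.21 to +0.57), and it did not pass (limma adjusted p = 0.14). With arrays centred or unscaled it was +0.14 relative to the median of all probes. *Hexa*, a lysosomal hexosaminidase next to *Celf6*, gave +0.19 ± 0.07 and *Cd276*, an immune checkpoint protein on the other side, +0.18 ± 0.06 (limma adjusted p = 0.73 and 0.63). The other neighbours were *Nptn* (+0.19 ± 0.17, and +0.0486 without bLR replicate 30), *Rec114* (+0.05 ± 0.06), *Hcn4* (+0.05 ± 0.06) and *Arih1* (-0.02 ± 0.07). The probes of *Rec114* and *Hcn4* lay below the median of all probes (6.66), so their values are weak measures.

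**Figure D4:**
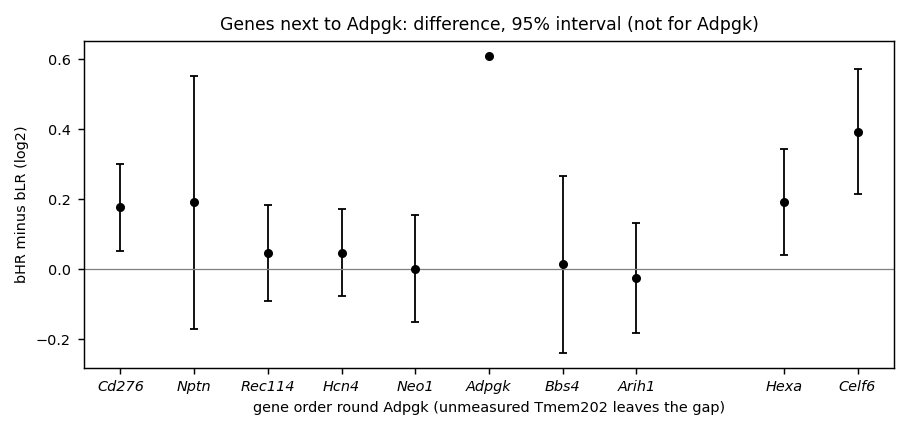
Difference bHR minus bLR (log2) of *Adpgk*, without an interval, and of the measured genes among the 5 on either side, with 95% intervals, in gene order. The direct neighbours *Neo1* and *Bbs4* lie near 0, and *Celf6*, at +0.39, is the highest of the 9 neighbours. *Rec114* and *Hcn4* have a signal below the median of all probes.

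Deviations of each rat from the mean of its line do not depend on the difference that chose *Adpgk*. Over the 12 rats *Gpi* was the member whose deviations were most like those of *Adpgk* (Pearson r = 0.54, Spearman rho = 0.54, permutation p = 0.073 and 0.075, adjusted p = 0.36 and 0.42 over the 45 pairs of member probes). Among all other probes of the array, *Gpi* ranked 734 by r with *Adpgk*. Without the 2 rats farthest from the *Adpgk* median, bHR replicate 39 and bLR replicate 38, the r of *Gpi* was 0.36. The other members lay between -0.12 and 0.36, and no pair with *Adpgk* passed. Among all probes with a gene symbol and a signal above the median, the highest r belonged to *Fxyd6*, a regulator of the sodium pump (r = 0.88, rho = 0.76), the provisional gene LOC497736 (0.83, 0.89), *Mlx*, a transcription factor partner (0.81, 0.73), *Fhod1*, a formin (0.81, 0.78), and *Tox*, a nuclear DNA-binding protein (0.80, 0.84). They are the extremes of a long list of probes over 12 rats and are given as a description.

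Other members did vary together, in pairs that cut across the subunits. How often pairs of other probes reach such r was not computed, so these pairs are not shown to be particular to the members. *Pfkl* followed the first *Aldoa* probe (r = 0.84, rho = 0.85, permutation p = 0.00036 and 0.0011, adjusted p = 0.0081 and 0.024 over 45 pairs). Both were highest in bLR replicates 38 and 42 and bHR replicate 41 and lowest in bLR replicate 46 relative to their line means. Without bLR replicates 42 and 46, the rats farthest out for *Pfkl*, r was 0.81, and over the 9 brighter arrays it was 0.88.

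*Pfkm* followed the second *Aldoa* probe (r = 0.89, rho = 0.87, permutation p = 6e-05 and 0.0004, adjusted p = 0.0027 and 0.018 over 45 pairs). Without bHR replicates 27 and 41 r was 0.83, and over the 9 brighter arrays it was 0.82. The crossed pairs had lower r, 0.22 for *Pfkl* with the second *Aldoa* probe and 0.31 for *Pfkm* with the first. Over the 9 brighter arrays these were 0.56 and 0.49, and without bHR replicate 27 they were 0.44 and 0.47. The 2 *Aldoa* probes correlated less with each other (r = 0.45, rho = 0.57, permutation p = 0.14 and 0.056, adjusted p = 0.49 and 0.36), with r = 0.72 over the 9 brighter arrays and 0.68 without bHR replicate 27. The difference between these correlations was not tested. *Pfkm* and *Pgk1* (r = 0.77, adjusted permutation p = 0.021) and *Pfkp* and the second *Aldoa* probe (r = 0.83, adjusted permutation p = 0.0082) also passed by r, but not by rho (0.69 and 0.78), and fell to 0.57 and 0.64 without their 2 farthest rats, bHR replicate 27 among them.

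**Figure D5:**
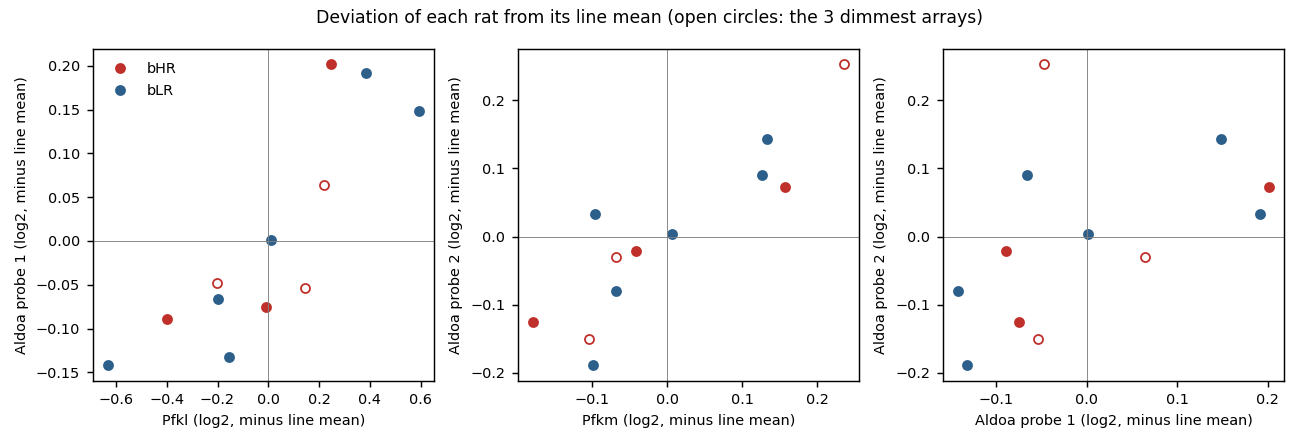
Deviation of each of 12 rats from its line mean (log2) for *Pfkl* and the first *Aldoa* probe, *Pfkm* and the second *Aldoa* probe, and both *Aldoa* probes; open circles are the 3 dimmest arrays. The first 2 panels show r = 0.84 and r = 0.89, and in the third, with r = 0.45, bHR replicate 27 lies highest for the second probe but not for the first.

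Tissue makeup was read from marker lists. Neuron, astrocyte and oligodendrocyte markers were measured above the median signal for 10 of 10, 7 of 7 and 7 of 7 measured genes, and no marker of any of the 7 lists passed limma. The mean of the neuron list ran from 10.96 to 11.44 in bHR and from 11.07 to 11.14 in bLR, and that of the astrocyte list from 10.81 to 11.31 in bHR and from 10.92 to 11.08 in bLR. Choroid plexus markers ran from 6.65 to 9.01 in bHR and from 7.78 to 8.77 in bLR, with bHR replicates 27 and 41 lowest (6.65 and 6.94). *Adpgk* read 9.11 and 9.06 in these 2 rats and 8.83 to 9.15 in the other 4 bHR rats. The part of choroid plexus in the *Adpgk* values was not tested. *Ttr*, the transthyretin made by choroid plexus, read 7.98 and 9.22 in bHR replicates 27 and 41 and at least 13.4 in the other 10 rats.

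The oligodendrocyte list ran from 9.53 to 9.84 in bHR and from 9.60 to 10.01 in bLR, the microglia list (6 of 7 measured) from 8.71 to 9.21 in bHR and from 9.07 to 9.23 in bLR, and the endothelium and pericyte list (4 of 7) from 8.09 to 8.28 in bHR and from 8.17 to 8.45 in bLR. Blood markers (5 of 7) ran from 9.33 to 10.23 in bHR and from 9.83 to 10.67 in bLR. The median differences of these lists were +0.02, -0.11, -0.09 and -0.17. Those of the neuron, astrocyte and choroid plexus lists were +0.02, -0.0046 and +0.16. The part of any marker list in the values of *Adpgk* and the other members was not tested.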

How the data were processed

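The authors deposited linear average bead intensity values for 22523 probes on 12 arrays, 1 per rat, read with limma 3.28.21, and a table of log2 values, quantile normalised with preprocessCore 1.34.0, per the submitters' processing notes. Whether the background was corrected is not stated in the labels.

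For the present fits, the intensities were taken to log2 and quantile normalised with all probes kept. The result differed from the authors' log2 values by at most 0.0107 for the members. A linear model with line as the only factor was fitted to every probe (lmFit, then eBayes; limma 3.58.1, R 4.3.3). P-values are two-sided, with a Benjamini-Hochberg adjustment across the 22523 probes and a threshold of 0.05. Differences are bHR minus bLR. The fit was tested on simulated data. Symbols were updated through RefSeq: the symbol itself matched for 10235 probes, a synonym for 4960 and a gene identifier for 1641, and the rest kept the name in the file. Lists used the brightest probe of a gene. Correlations used deviations from line means and 100000 permutations.

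The members, lists and tests were chosen with earlier results of these data known. Named from each list were up to 3 genes with the lowest p among those above the median signal. Also named were the measured genes among 5 on each side of *Adpgk* and the 5 probes most like it. The values of 1 gene that this rule names are not reported here.

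Alternatives were array centring, no scaling, normexp with an offset of 50, the authors' values, a filter on dim probes, a variance trend, array weights, the 9 brighter arrays (mean at least 0.7 of the median array mean), brightness as a block, a threshold of 0.1, the mean of a gene's probes, and leaving out each rat.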

Additional observations from a re-analysis of the deposited data

Results flagged for a closer look

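Of 82 groups of 6 values (a named gene in 1 line), 7 held a rat whose gap to the nearest rat took a larger share of the range of its line than Dixon's critical value for 6 values. Chance gives about 1 in 20. *Pfkp* in bHR replicate 27 read 13.39, the next rat 12.99 (share 0.668), and *Gpd2* in the same rat read 10.97, the next 10.63 (0.633). In bLR, *Slc2a13* in replicate 30 read 7.45, the next 7.05 (0.739), and *Nptn* in the same rat was low at 9.50, the next 10.31 (0.851). *Pgd* in bLR replicate 42 read 11.15, the next 10.77 (0.683). *Slc16a3* in bLR replicate 26 read 8.78, the next 8.60 (0.684), and *Neo1* in bLR replicate 46 read 10.50, the next 10.27 (0.629).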

How the results depend on the processing

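The *Adpgk* difference, whose direction the choice of the gene fixed, lay at +0.57 to +0.67 when 1 rat was left out and at +0.61 to +0.65 otherwise, except with arrays centred or unscaled, where it was +0.39 relative to the median of all probes. The median of the other member probes, +0.04, was -0.25 in these 2 settings and +0.02 to +0.07 when 1 rat was left out. Of the other member probes 0 passed in any setting, and of the list genes 0 passed; with centring 1 of 9 member probes and 34 of 85 list genes had an unadjusted p under 0.05, against 24.3% of all probes, and without scaling 8 and 51, against 43.8%. The calls over all probes were 20, with 6 under centring, 4 without scaling, 6 with brightness as a block, and 9 (without bLR replicate 28) to 24 (without bHR replicate 27) when 1 rat was left out. No paired analysis was possible because no rat number is shared between the lines.

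Of the 40 single differences apart from *Adpgk*, 16 kept their sign but moved by over 1.5 times with arrays centred, 19 on the 9 brighter arrays, 17 without bHR replicate 27 and 15 without bLR replicate 30. Estimates of single genes that turned sign are given here, none past the threshold. Relative to the median of all probes, centring and no scaling give the same differences by construction. With either of them the estimates were *Gpi* -0.21, *Pfkp* -0.27, *Aldoa* -0.26 and -0.19, *Tpi1* -0.25, *Pgk1* -0.24, *Slc2a5* -0.19, *Slc2a6* -0.23, *Aldoc* -0.28, *Pkm* -0.16, *Ugp2* -0.13, *Pgd* -0.27, *Rpia* -0.22, *Dld* -0.19, *Gpd1* -0.18, *Nptn* -0.12, *Neo1* -0.30, *Bbs4* -0.22 and *Hexa* -0.0838. Array weights gave *Neo1* -0.0162 and *Bbs4* -0.0106. On the 9 brighter arrays and with the brightness block they were *Slc2a6* -0.00147 and -0.000495, *Pkm* -0.0799 and -0.0784, *Ugp2* -0.0644 and -0.0634, *Gpd1* -0.0575 and -0.0550, *Adm* +0.0123 and +0.0114, *Nptn* -0.0499 and -0.0495, and *Bbs4* -0.16 and -0.15. Leaving out 1 rat gave ranges across 0 for *Pfkl* (-0.19 to +0.0501), *Pfkm* (-0.0807 to +0.00320), *Pfkp* (-0.0368 to +0.0824), *Slc2a5* (-0.0506 to +0.11), *Slc2a6* (-0.0210 to +0.0665), *Fbp2* (-0.0197 to +0.0906), *Aldoc* (-0.0403 to +0.0593), *Rpia* (-0.00193 to +0.0940), *Gpd1* (-0.00403 to +0.0808), *Gpd2* (-0.11 to +0.0102), *Neo1* (-0.0282 to +0.0477), *Bbs4* (-0.0765 to +0.0756) and *Arih1* (-0.0678 to +0.0138). The cause was not tested. The r of *Fxyd6* with *Adpgk* was 0.90 on the 9 brighter arrays. Signal near the median of all probes limits *Hk2* and the dim list genes.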

Other observations

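*Bnip3*, a mitophagy receptor of the hypoxia list, was singled out after its values were seen, because it moved in steps between rats of both lines. It read 13.02, 12.64, 11.73 and 11.51 in bHR replicates 27, 29, 33 and 47 and 8.26 and 8.26 in replicates 39 and 41. In bLR it read 11.90 and 11.63 in replicates 28 and 30 and 8.08 to 8.85 in the other 4. The high and low rats thus occur in both lines, 4 of 6 high in bHR and 2 of 6 in bLR, and the difference of +1.34 ± 0.93 (SE) did not pass (limma adjusted p = 0.88). Its relative *Bnip3l* gave +0.08 ± 0.06.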
